A study of Arabidopsis thaliana with 48 samples.

Results

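Shoot apices of *flc svp* plants were compared with those of wild-type plants, both grown in short days (SDs). The comparison took the 3 arrays titled flc/svp and the 3 arrays titled FLC/SVP among the SD apex samples, 6 of the 48 arrays of the series, and covered the 31004 genes of the deposited table. *flc svp* carried the *flc-3* and *svp-41* alleles together, and wild type carried functional alleles of both genes. All plants were *Arabidopsis thaliana* of the Columbia background with a functional *FRIGIDA* (*FRI*) allele introduced by crossing, so the controls had the high *FLC* expression that *FRI* confers and were not the common Columbia laboratory strain. According to the labels, plants were 2 weeks old and received an additional 2 short days, with harvest 8 h into the day. The methods name 3 biological replicates, but no source used here says whether these came from separate batches of plants. P-values therefore measure the spread between arrays of a group, pooled over all 48 arrays of the series. Each mutation was represented by 1 allele, so an effect of the mutated gene and an effect of a linked or other inherited difference in the same line cannot be told apart. Other arrays of the series serve below to show where *flc svp* SD apices differ, namely the single mutants *svp* and *flc* in SD apices, *flc svp* and wild type in SD leaves, and *flc svp* and wild type in apices after transfer to long days (LDs).

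FLC and SVP are MADS-box transcription factors that repress flowering and can act in the same protein complex. In the shoot apex they repress *SOC1*, a floral integrator gene whose product promotes the conversion of the vegetative meristem into an inflorescence meristem, and in leaves they repress *FT*, which encodes the mobile flowering signal. Gibberellin is a growth hormone that promotes flowering in SDs, and SVP lowers its level at the apex by repressing a biosynthetic gene. The comparison asks which transcripts of the apex depend on the 2 repressors when no inductive day length is given.

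Values are log2 expression levels from a tiling array, a difference of 1 is a 2-fold change, and n = 3 arrays per group throughout. Pairs of arrays correlated over all genes with r of 0.991 to 0.992 within a genotype and 0.988 to 0.989 across the genotypes. Over only the genes called below, which were chosen from these same arrays, wild-type array 3 stood somewhat apart. Its median absolute gap to the mean of the other arrays of its genotype was 0.296, against 0.203 to 0.224 in the other 5 arrays. The array medians lay between 4.33 and 4.37, so a level near or below 4.33 is a dim one. Marker genes were compared between the genotypes, a test that cannot check the apex label, which both share. In wild-type LD arrays the median difference of leaf minus apex was -0.30 for the shoot meristem markers. It was -2.17 for the markers of dividing cells and 0.95 for the leaf mesophyll markers. None of the 11 shoot meristem markers, 9 leaf mesophyll markers, 10 root markers, 4 phloem markers, 6 epidermis and trichome markers, 5 floral organ markers or 3 markers of dividing cells passed the test between the genotypes. *STM*, which maintains the meristem, stood at 7.29, 6.90 and 7.23 in *flc svp*, against 7.39, 7.45 and 7.36 in wild type. *WUS* and *CLV3*, which are active in few cells of the meristem, were dim, at 2.78 to 3.14 in *flc svp* and 2.80 to 3.33 in wild type. The leaf mesophyll markers averaged 11.6 to 11.7 in *flc svp* arrays and 11.6 to 11.8 in wild-type arrays, so leaf transcripts were abundant in the dissected apices of both genotypes. The 4 phloem markers averaged 6.94 to 7.06 in *flc svp* and 6.59 to 6.90 in wild type, and the 11 meristem markers 4.54 to 4.79 in *flc svp* and 4.73 to 4.86 in wild type. In 4 of the 11 meristem markers the *flc svp* arrays all lay below the wild-type arrays, which 10.1% of all genes did. The part of such shifts in the results below was not tested. In whole apices, fewer cells of a type and less RNA per cell cannot be told apart.

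A gene was called when it differed by more than 2-fold at a Benjamini-Hochberg adjusted p under 0.01 in a limma model of all arrays. Of the 31004 genes, 147 (0.474%) were called, of which 52 (0.168%) were higher and 95 (0.306%) lower in *flc svp* apices. The changes of the higher genes lay between 1.01 and 5.05 with a median of 1.41, and those of the lower genes between -1.002 and -3.23 with a median of -1.46, while the median over all genes was -0.001. In all 147 genes the 3 *flc svp* arrays lay on 1 side of the 3 wild-type arrays, a separation that 20% of all genes showed (9.93% with *flc svp* above and 10.1% with *flc svp* below). Without the fold threshold 529 genes passed the adjusted p, 216 higher and 313 lower. Of the called genes, 91 (31 higher and 60 lower) stayed called whichever of the 6 arrays was left out.

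The targets of the mutations came first. *FLC* (AT5G10140) gave 6.71, 6.12 and 6.63 in the *flc svp* arrays, against 9.55, 9.41 and 9.30 in wild type. The groups were far apart, and *FLC* fell by 2.93 ± 0.14 (SE; adjusted p = 1.5e-17), the second largest fall of all called genes. The *flc-3* allele is a deletion at the start of the gene, and the signal that remained was still above the array median. *SVP* (AT2G22540) gave 6.54, 6.61 and 6.81 in *flc svp*, against 7.51, 7.57 and 7.67 in wild type, and its difference of -0.93 ± 0.11 (adjusted p = 1.2e-06) stayed within 2-fold. The *svp-41* allele is a small deletion that shifts the reading frame, which does not require loss of the transcript. For both genes every array labelled as mutant lay below every wild-type array.

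**Figure D1:**
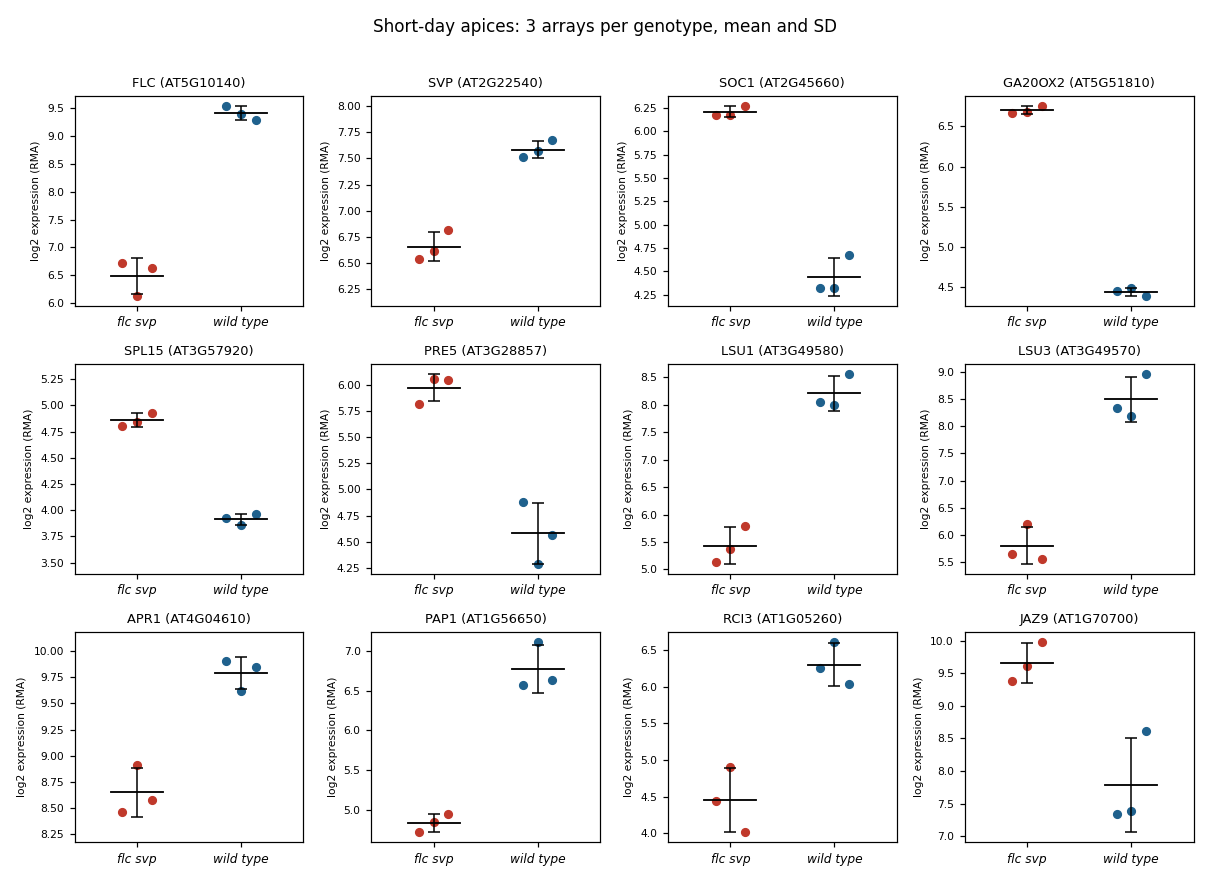
Log2 expression in SD apices of 12 genes, in *flc svp* (left, red) and wild type (right, blue), with a point for each of 3 arrays and the mean and SD in black; the vertical scale differs between panels. The 2 genotypes do not overlap in any of the 12 panels.

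Among flowering genes few were called, and the largest change was that of *SOC1* (AT2G45660, listed as *AGL20*). It gave 6.17, 6.18 and 6.27 in *flc svp*, against 4.32, 4.32 and 4.67 in wild type. All *flc svp* arrays lay well above all wild-type arrays, and *SOC1* rose by 1.77 ± 0.13 (adjusted p = 4.7e-12). Of 46 flowering and MADS-box genes listed, all were measured, 2 rose and 1 fell, with a median change of -0.02. Over all genes, 0.168% were called higher and 0.306% lower. In wild type 25 of the 46 were under the array median. In 6 of the 46 the *flc svp* arrays all lay above the wild-type arrays and in 11 all below, against 9.93% and 10.1% of all genes. *AGL15* (AT5G13790), a MADS-box gene that delays flowering, also rose, by 1.06 ± 0.24 (adjusted p = 0.0064). That call depended on the full set of arrays, since it was lost without *flc svp* array 1 or 3 (0.87 and 1.03) and without wild-type array 1, 2 or 3 (1.15, 1.08 and 0.94). *CDF3* (AT3G47500), a DOF transcription factor of the family that represses the photoperiod gene *CO*, gave 5.76, 5.58 and 6.13 in *flc svp*, against 7.31, 7.14 and 7.20 in wild type, and fell by 1.39 ± 0.24 (adjusted p = 0.00023).

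The genes that act after or beside *SOC1* were not called. *LFY* and *AP1* confer floral identity on meristems, and *FUL* (listed as *AGL8*) acts together with *SOC1*. *LFY* gave 3.99, 4.00 and 4.12 in *flc svp*, against 3.63, 3.66 and 3.69 in wild type, without overlap, a difference of 0.37 ± 0.11 (adjusted p = 0.043). *AP1* differed by -0.02 ± 0.15 and *FUL* by 0.11 ± 0.15, both with overlapping arrays. *FT* lay between 2.51 and 2.82 in all 6 arrays, well under the array median. The repressors of *FT* and gibberellin synthesis *TEM1* and *TEM2* (listed as *RAV2*) differed by 0.28 ± 0.27 and 0.20 ± 0.38, again with overlapping arrays. The 5 floral organ markers were *AP3*, *PI*, *AG* and the 2 *SHATTERPROOF* genes. They averaged 3.07 to 3.27 in *flc svp* and 2.99 to 3.17 in wild type, under the array median in both genotypes. In wild type 4 of the 5 markers were under the array median, and the highest stood at 4.43.

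*SPL15* (AT3G57920), which encodes a transcription factor of the ageing pathway that promotes flowering in SDs, was just short of a call. Its arrays were at 4.81, 4.84 and 4.93 in *flc svp*, against 3.92, 3.85 and 3.96 in wild type. The difference of 0.95 ± 0.12 was far larger than the spread within the groups (adjusted p = 5.0e-06) and missed only the fold threshold. Of 9 *SPL* genes measured none was called and the median was -0.04. *SPL3*, *SPL4*, *SPL5* and *SPL9* lay between -0.05 and 0.33.

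In the gibberellin pathway 1 biosynthetic gene was prominent. *GA20OX2* (AT5G51810), which encodes an oxidase that makes the precursors of active gibberellins, gave 6.67, 6.68 and 6.76 in *flc svp*, against 4.45, 4.49 and 4.39 in wild type. It rose by 2.26 ± 0.17 (adjusted p = 1.4e-11), with an SD of 0.05 in each genotype. Of 39 gibberellin genes listed, 1 rose and 1 fell, against 0.168% and 0.306% of all genes, and the median was 0.00. The other gene was *GASA5* (AT3G02885), a gibberellin-regulated gene that delays flowering, at 4.41, 4.60 and 4.84 in *flc svp*, against 6.86, 7.11 and 5.69 in wild type. It fell by 1.94 ± 0.35 (adjusted p = 0.00051), but without wild-type array 2, which had the highest value, it was -1.67 and no longer passed (adjusted p = 0.012).

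No other enzyme gene of the pathway was called. *GA3OX1*, which makes the last step to the active hormone, gave 6.40, 6.34 and 6.28 in *flc svp*, against 6.24, 6.42 and 6.21 in wild type, and *GA20OX1* differed by 0.08. Below 2-fold, *GA2OX1*, which encodes a catabolic enzyme, differed by -0.90, *GA2OX2*, also catabolic, by 0.62, and *RGA*, which encodes a DELLA repressor of gibberellin signalling, by 0.53, each at an adjusted p under 0.01. The 6 *PRE* genes encode small helix-loop-helix proteins that promote cell elongation downstream of gibberellin and brassinosteroid. Of these 1 rose, against 0.168% of all genes called higher. *PRE5* (AT3G28857) gave 5.82, 6.05 and 6.05 in *flc svp*, against 4.88, 4.29 and 4.57 in wild type, a rise of 1.39 ± 0.20 (adjusted p = 2.3e-05). *PRE1* had a larger difference of 1.59 with an adjusted p of 0.024, so its spread kept it from a call.

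**Figure D2:**
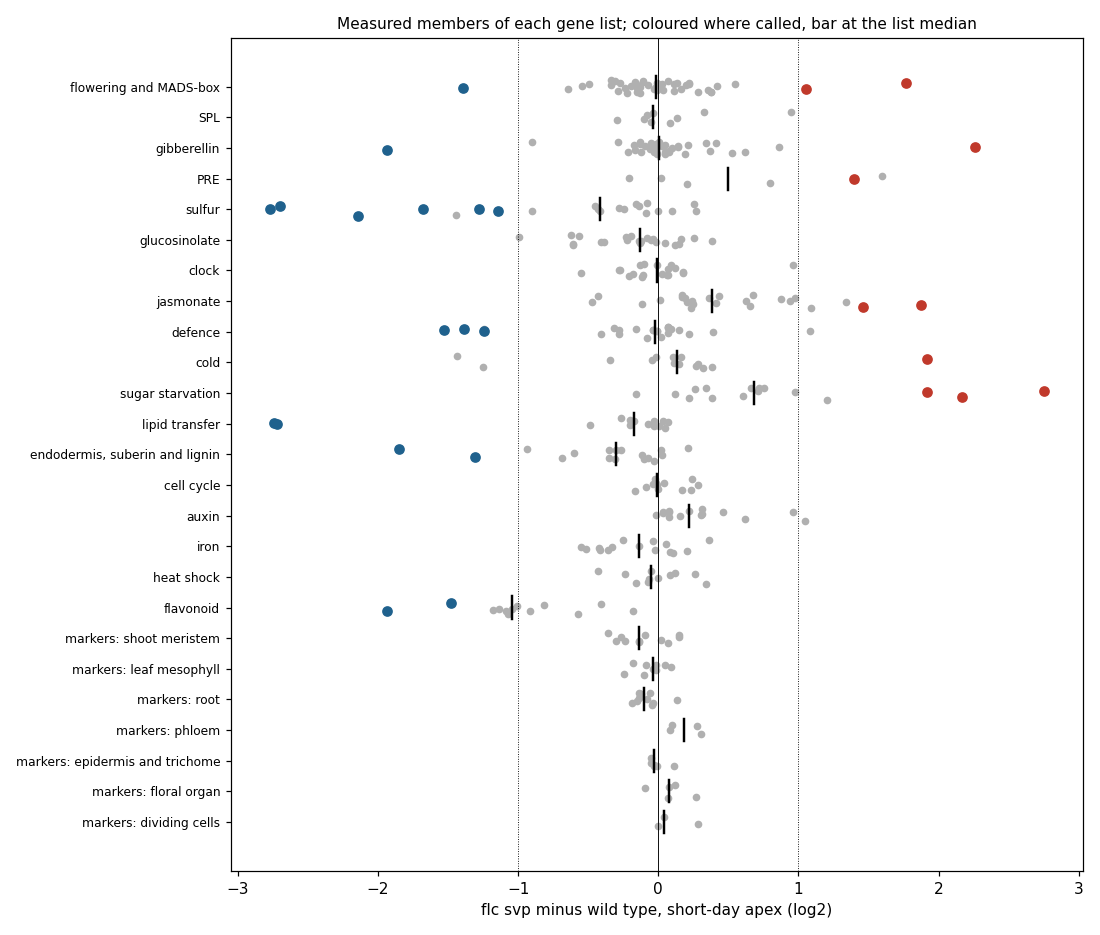
Change in *flc svp* relative to wild type in SD apices (log2, horizontal axis) for each measured member of the gene lists (rows). Red and blue points were called higher and lower, grey points were not called, black bars mark the list medians and dotted lines the 2-fold limits; sulfur genes hold 6 called falls, sugar starvation genes 3 called rises, and the flavonoid list has a median of -1.04.

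Among the lists, sulfur-responsive genes held the highest number of called members, 6. Plants short of sulfate switch on *LSU* genes and *SDI1*, which lower glucosinolate production, together with the *APR* genes, whose products reduce activated sulfate on the way to cysteine. Of 21 such genes identified by symbol and measured, 6 fell and none rose, against 0.306% of all genes called lower, and the list median was -0.42 with 17 members below 0. *LSU1* (AT3G49580) gave 5.13, 5.37 and 5.79 in *flc svp*, against 8.05, 7.99 and 8.56 in wild type, and fell by 2.77 ± 0.22 (adjusted p = 3.7e-11). Its neighbour *LSU3* (AT3G49570) gave 5.65, 6.20 and 5.56 in *flc svp*, against 8.34, 8.19 and 8.97 in wild type, and fell by 2.70 ± 0.31 (adjusted p = 2.8e-07). The 2 genes are similar in sequence, and how the array separates them is not given in the sources used here. *LSU2* (AT5G24660) fell by 1.68 ± 0.27 (adjusted p = 9.9e-05), with arrays at 5.30, 5.69 and 5.27 in *flc svp*, against 7.31, 6.60 and 7.38 in wild type. The fourth member, *LSU4*, differed by -0.42 ± 0.25 with overlapping arrays.

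*APR1* (AT4G04610) gave 8.46, 8.91 and 8.58 in *flc svp*, against 9.91, 9.62 and 9.85 in wild type, a fall of 1.14 ± 0.22 (adjusted p = 0.00096) that lost its call without *flc svp* array 1 (-1.04, adjusted p = 0.013). *APR3* (AT4G21990) fell by 1.28 ± 0.29 (adjusted p = 0.0071), and its call was lost without any of the 6 arrays in turn, with values between -1.18 and -1.35, although its arrays at 6.92, 7.05 and 7.14 in *flc svp* were clear of the 8.38, 8.15 and 8.42 in wild type. *SDI1* (AT5G48850) gave 4.64, 5.04 and 6.08 in *flc svp*, against 7.41, 6.95 and 7.83 in wild type, and fell by 2.14 ± 0.43 (adjusted p = 0.0020). It lost its call without *flc svp* array 1 (-1.78) or 2 (-2.08) or wild-type array 3 (-1.93), and in a fit of the 24 apex arrays alone (adjusted p = 0.016). The listed locus AT1G04770, which encodes a tetratricopeptide repeat protein and was left out of the 21 because the symbol table gives it no symbol, gave 6.72, 6.52 and 7.05 in *flc svp*, against 8.79, 8.62 and 9.03 in wild type, a fall of 2.05 ± 0.29 (adjusted p = 1.8e-05).

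The sulfate transporters measured, *SULTR1;1*, *SULTR1;2*, *SULTR2;1*, *SULTR2;2*, *SULTR4;1* and *SULTR4;2*, lay between -0.14 and 0.27 and none was called. None of the 23 glucosinolate genes was called either, with a median of -0.13. The regulators of aliphatic glucosinolate synthesis *MYB29* and *MYB28* differed by -0.995 (adjusted p = 0.00030) and -0.62 (adjusted p = 0.00097), both short of 2-fold. From a list of 14 phosphate-starvation genes, added after the values had been seen, 2 genes fell, against 0.306% of all genes called lower, and the median was -0.02. *SPX1* (AT5G20150) gave 5.04, 5.05 and 5.32 in *flc svp*, against 6.82, 6.82 and 6.31 in wild type, a fall of 1.51 ± 0.22 (adjusted p = 2.3e-05), and *PAP17*, which encodes a phosphatase, fell by 1.48 ± 0.25 (adjusted p = 0.00016).

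Among flavonoid and anthocyanin genes few passed the test. Of 13 genes identified by symbol and measured, 2 fell and none rose, against 0.306% of all genes called lower. The other 11 did not pass, all 13 had values below 0, and the median was -1.04. In 12 of the 13 the *flc svp* arrays all lay below the wild-type arrays, which 10.1% of all genes did. *PAP1* (AT1G56650), a MYB activator of anthocyanin synthesis, gave 4.72, 4.84 and 4.95 in *flc svp*, against 6.57, 7.12 and 6.63 in wild type, a fall of 1.93 ± 0.36 (adjusted p = 0.00081). Without wild-type array 2 it was -1.77 and lost its call (adjusted p = 0.012). *TT7* (AT5G07990), which encodes flavonoid 3'-hydroxylase, gave 5.30, 5.98 and 5.48 in *flc svp*, against 6.82, 7.72 and 6.66 in wild type. Its fall of 1.48 ± 0.30 (adjusted p = 0.0018) lost its call without *flc svp* array 1 (-1.36) or 3 (-1.46) or wild-type array 2 (-1.20), and it was also lost in a fit of the 24 apex arrays alone (adjusted p = 0.035).

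The early enzymes *CHS*, *CHI* and *F3H* differed by -1.14, -1.01 and -1.07, with adjusted p of 0.20, 0.012 and 0.070, and the late enzymes *DFR* and *LDOX* by -1.04 and -1.09, with adjusted p of 0.57 and 0.46. Each of these 5 differences exceeded 2-fold without overlap of the arrays, but the spread of these genes in the fit of all arrays was large. The listed locus AT4G14090, annotated as a UDP-glycosyltransferase and left out of the 13, fell by 1.64 ± 0.35 (adjusted p = 0.0039), a call that was lost without any array except wild-type array 1, with values between -1.49 and -1.74. *TT8*, a helix-loop-helix partner of the MYB activators, differed by -0.92 (adjusted p = 0.0012). Named after their values were seen, *HY5* (AT5G11260), a bZIP factor that promotes light responses and flavonoid genes, fell by 1.29 ± 0.17 (adjusted p = 7.5e-06), and stayed called without each of the 6 arrays. It gave 5.54, 5.63 and 5.64 in *flc svp*, against 7.15, 7.04 and 6.49 in wild type.

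Several of the 15 largest falls were genes for proteins of the cell wall or cell surface, brought together here after their values were seen. *PELPK1* (AT5G09530), which encodes a cell wall protein rich in proline, gave 2.89, 2.97 and 2.79 in *flc svp*, against 5.78, 6.02 and 5.14 in wild type, and fell by 2.76 ± 0.33 (adjusted p = 8.1e-07). Its neighbour *PELPK2* (AT5G09520) fell by 2.36 ± 0.37 (adjusted p = 6.2e-05). Lipid transfer proteins carry lipids to the cell surface, and of 15 such genes 2 fell (0.306% of all genes were called lower). AT3G22600 (*LTPG5*) gave 4.02, 4.33 and 4.34 in *flc svp*, against 7.22, 7.44 and 6.26 in wild type, a fall of 2.74 ± 0.39 (adjusted p = 1.5e-05), and AT3G22620 fell by 2.72 ± 0.33 (adjusted p = 1.1e-06). AT3G22620 has no matching symbol and was kept on this list by hand, whereas AT1G04770 and AT4G14090 were left out of theirs. The other 13 measured lipid transfer genes lay between -0.49 and 0.07 and none was called.

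AT4G38080, annotated as a hydroxyproline-rich glycoprotein, fell by 2.58 ± 0.38 (adjusted p = 2.2e-05), with arrays at 3.98, 3.69 and 4.32 in *flc svp*, against 6.76, 6.96 and 6.01 in wild type. AT4G20390, which encodes the CASP-like membrane protein CASPL1B2, fell by 2.01 ± 0.26 (adjusted p = 3.9e-06), with arrays at 4.03, 3.86 and 3.92 in *flc svp*, against 5.79, 6.41 and 5.63 in wild type. In all of these genes the *flc svp* arrays were near or below the array median, while the wild-type arrays were above it. Of 17 genes of the endodermis, suberin and lignin, 2 fell, again against 0.306% of all genes. *RWP1* (AT5G41040), which encodes the transferase that adds ferulate to suberin, fell by 1.31 ± 0.19 (adjusted p = 2.5e-05), and *RCI3* (AT1G05260), a class III peroxidase gene, by 1.85 ± 0.20 (adjusted p = 9.5e-08).

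*RCI3* gave 4.44, 4.90 and 4.02 in *flc svp*, against 6.26, 6.62 and 6.04 in wild type. Class III peroxidases oxidise phenolic compounds in the wall. They were listed by symbol, and *RCI3* and *PER64*, both also on the endodermis list, were added by locus. Of 12 listed and measured, 2 fell (against 0.306% of all genes), *RCI3* and *PRXCB* (AT3G49120, 1.34 ± 0.24 lower, adjusted p = 0.00045). Because *RCI3* was added by hand and is counted above as well, this share does not describe the peroxidase family. A further 3 loci annotated as peroxidases, named after their values were seen, were called lower too, namely AT4G11290 at -1.80, AT2G38380 at -1.68 and AT3G32980 at -1.22. Peroxidase loci outside the list that were not called were not counted. AT2G38380 lost its call without wild-type array 1 (-1.54) or 2 (-1.48). The endodermal *CASP1* to *CASP5*, which build the Casparian strip in roots, lay between -0.31 and 0.21 and none was called.

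The 10 root markers were low in both genotypes. They averaged 3.28 to 3.33 in *flc svp* arrays and 3.32 to 3.42 in wild-type arrays, 9 of the 10 lay under the array median in wild type, none was called, and their differences lay between -0.19 and 0.13. The tissue preference of the called genes was read from wild-type arrays of LD plants, which the comparison did not use. There, 43 of the 95 genes lower in *flc svp* (45.3%) were called higher in apices than in leaves and 13 (13.7%) higher in leaves, against 5.26% and 5.06% of all genes. Of the 52 genes higher in *flc svp*, 6 (11.5%) were apex-enriched and 9 (17.3%) leaf-enriched. A gene can be called lower only if it is expressed in wild-type apices, whereas all genes include dim ones. These shares are therefore descriptions, and the part of that choice in them was not tested.

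The cell wall and suberin genes also varied between arrays of 1 genotype. In wild type, array 3 was the lowest for *PELPK1*, *PELPK2*, AT3G22600, AT3G22620, AT4G38080, AT4G20390, *GASA5*, *RCI3* and *RWP1*, and array 2 the highest for each of these genes. In *flc* apices, array 2 was above arrays 1 and 3 for all 9 genes, at 5.47 for *PELPK1* against 3.66 and 3.73 in the other arrays of that genotype. What sets this shared variation was not tested. The calls of *PELPK1*, *PELPK2*, AT3G22600, AT3G22620, AT4G38080, AT4G20390, *RCI3* and *RWP1* held when each of the 6 arrays was left out, and that of *GASA5* did not, as given above. In a fit of the 12 SD apex arrays alone the calls of *PELPK2* (adjusted p = 0.026), AT3G22600 (0.010), AT4G38080 (0.019) and *RWP1* (0.017) were lost, and with only the 6 arrays compared those of *PELPK2* (0.013), *RCI3* (0.016) and *RWP1* (0.033).

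Among jasmonate genes 2 *JAZ* genes were called. *JAZ* genes encode repressors of jasmonate responses and are themselves induced by the hormone. Of 24 jasmonate genes measured, 2 rose and none fell, against 0.168% of all genes called higher. The other 22 did not pass, 21 of the 24 had values above 0, and the median was 0.39. *JAZ9* (AT1G70700, listed as *TIFY7*) gave 9.38, 9.61 and 9.98 in *flc svp*, against 7.35, 7.39 and 8.62 in wild type, a rise of 1.88 ± 0.34 (adjusted p = 0.00043). *JAZ6* (AT1G72450) gave 8.28, 8.48 and 8.73 in *flc svp*, against 6.80, 6.99 and 7.31 in wild type, a rise of 1.46 ± 0.23 (adjusted p = 6.7e-05). *JAZ3* differed by 0.94 (adjusted p = 0.0020). The biosynthetic genes *LOX2*, *AOS* and *OPR3* differed by -0.11, 0.41 and 0.62, and the wound-response genes *VSP1* and *VSP2* by -0.48 and -0.43, none of them called.

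Sugar-starvation genes held 3 called rises. These genes are induced when carbon is short, in darkness or late in the night. Of 16 measured, 3 rose and none fell, against 0.168% of all genes called higher. The other 13 did not pass, 15 of the 16 had values above 0, and the median was 0.69. *BT2* (AT3G48360), which encodes a BTB-domain protein that responds to nutrients and sugars, gave 9.41, 9.09 and 9.54 in *flc svp*, against 6.48, 7.22 and 7.83 in wild type, and rose by 2.17 ± 0.28 (adjusted p = 2.8e-06). *DIN10* (AT5G20250), a raffinose synthase-like gene induced by darkness, gave 7.09, 6.59 and 7.31 in *flc svp*, against 4.88, 4.97 and 5.39 in wild type, and rose by 1.92 ± 0.31 (adjusted p = 0.00011). The third called member was *QQS*, an orphan gene that influences starch content, described below with the genes of largest change. Unlike in *flc svp*, *QQS* was lower than wild type in both single mutants. *ASN1*, another marker of carbon shortage, differed by 0.27 (adjusted p = 0.83). *ERD5* (AT3G30775), a proline dehydrogenase gene not on the list, rose by 2.02 ± 0.43 (adjusted p = 0.0030), but its call was lost without *flc svp* array 1 (1.98) or 3 (1.85) or wild-type array 2 (1.95) or 3 (1.92).

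Of 24 salicylic acid and defence genes, 3 fell, against 0.306% of all genes called lower, and the median was -0.03. *WRKY54* (AT2G40750) gave 5.56, 5.23 and 5.48 in *flc svp*, against 7.27, 7.11 and 6.48 in wild type, and fell by 1.53 ± 0.28 (adjusted p = 0.00065). *WRKY51* (AT5G64810) fell by 1.24 ± 0.20 (adjusted p = 0.00014). *NIMIN1* (AT1G02450), whose product binds the salicylic acid co-activator NPR1, fell by 1.39 ± 0.28 (adjusted p = 0.0017) and lost its call without *flc svp* array 2 (-1.17) or wild-type array 1 (-1.30) or 2 (-1.27). The late marker genes *PR1*, *PR2* and *PR5* differed by -0.28, -0.32 and -0.16, none of them called.

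The other lists held few calls or none. In the cold list of 14 genes the 1 call was *DIN10* again, against 0.168% of all genes called higher. *DREB1A*, an activator of cold responses, differed by -1.44 (adjusted p = 0.014). No gene was called among 19 clock genes, 12 cell cycle genes, 15 auxin genes, 15 iron genes or 11 heat shock genes. Of these, *IAA19*, an auxin-responsive gene, differed by 0.96 (adjusted p = 0.00076), and the cell cycle genes all lay between -0.17 and 0.28. The auxin list does not hold *AXR3*, which was called lower. The cell cycle list does not hold AT3G27630 (*SMR7*), which was called higher. Both genes are given below.

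The largest rise and the largest fall were those of *SADHU3-2* and *PIN1AT*. *SADHU3-2* (AT3G42658), a non-coding retroposon, gave 11.24, 11.18 and 11.19 in *flc svp*, against 6.34, 6.02 and 6.10 in wild type, and rose by 5.05 ± 0.17 (adjusted p = 1.6e-22). *QQS* (AT3G30720), an orphan gene that influences starch content, gave 10.61, 10.67 and 10.59 in *flc svp*, against 7.90, 7.22 and 8.48 in wild type, and rose by 2.76 ± 0.19 (adjusted p = 8.9e-13). *PIN1AT* (AT2G18040), which encodes a peptidyl-prolyl isomerase that promotes flowering, gave 6.90, 6.98 and 7.16 in *flc svp*, against 10.24, 10.28 and 10.22 in wild type, and showed the largest fall, 3.23 ± 0.10 (adjusted p = 3.8e-24). For *SADHU3-2* and *PIN1AT* the distance between the genotypes was many times the spread within them, while for *QQS* the wild-type arrays were spread over a wider range than the *flc svp* arrays.

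Other large rises were those of AT3G27630 (*SMR7*), which encodes an inhibitor of cyclin-dependent kinases, by 2.65 ± 0.28, of AT4G21870, an HSP20-like chaperone gene, by 2.60 ± 0.30, and of AT2G13547, a gene of unknown function, by 2.39 ± 0.34. AT2G11891, AT5G63820 and AT1G67865, also of unknown function, rose by between 1.71 and 1.79. AT3G22275 rose by 1.93 ± 0.42 and lost its call without *flc svp* array 2 (1.80) or 3 (1.84) or wild-type array 2 (1.602). Among the falls, the microRNA locus *MIR850* (AT4G13493) gave 3.91, 4.75 and 4.41 in *flc svp*, against 6.70, 6.48 and 6.12 in wild type, a fall of 2.07 ± 0.32 (adjusted p = 5.0e-05) that concerns the locus and not the mature microRNA.

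Because the mutations were brought in by crossing, called genes were counted along the chromosomes. Within 300 genes on each side of *FLC*, 8 of 600 genes (1.33%) were called and all were lower, among them *PELPK1*, *PELPK2*, *TT7* and *HY5*. Within 300 genes on each side of *SVP*, 4 (0.667%) were called. Over all genes the share was 0.474%, and between 0.349% and 0.588% on the 5 chromosomes. The largest fall, that of *PIN1AT* (AT2G18040), lies on the same chromosome as *SVP* but outside the window counted. It was low in *flc svp* and *svp* and near wild type in *flc*. Whether linkage contributed to any of these changes was not tested.

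The single mutants were set beside the double mutant. Their comparisons use the same wild-type arrays, so the values are given without a test of their likeness. Against wild type, 67 genes (0.216%) were called in *svp* apices, 14 higher (0.0452%) and 53 lower (0.171%). In *flc* apices 23 genes (0.0742%) were called, 9 higher (0.029%) and 14 lower (0.0452%). The 52 genes higher in *flc svp* had median changes of 1.41 in *flc svp*, 0.76 in *svp* and 0.55 in *flc*, and the 95 lower genes medians of -1.46, -1.09 and -0.73. Both sets were chosen for their change in *flc svp*, so a larger median there is partly built in.

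**Figure D3:**
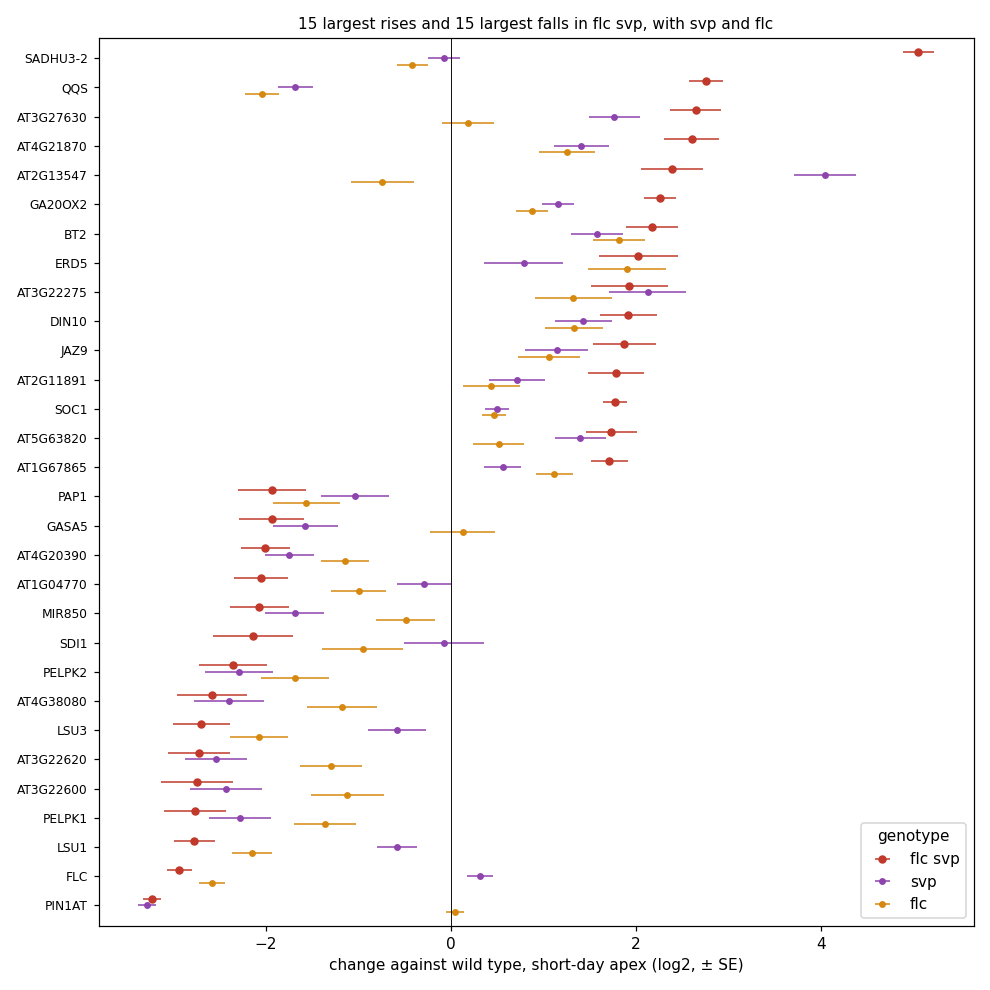
Change against wild type in SD apices (log2, with the SE as bars) for the 15 largest rises (top) and 15 largest falls (bottom) in *flc svp*, shown for *flc svp* (red), *svp* (purple) and *flc* (orange). *PIN1AT* lies at -3.23 in *flc svp*, -3.28 in *svp* and 0.04 in *flc*, and *LSU1* at -2.77, -0.58 and -2.15.

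The direct comparison of *flc svp* with *svp* asks what loss of *FLC* adds where *SVP* is lost. It called 11 genes (0.0355%), 6 higher (0.0194%) and 5 lower (0.0161%). *SADHU3-2* differed by 5.12 ± 0.17, *QQS* by 4.44 ± 0.19 and *FLC* itself by -3.25 ± 0.14. *LSU1* gave 7.81, 7.45 and 7.61 in *svp* apices and was lower in *flc svp* than in *svp* by 2.19 ± 0.22 (adjusted p = 7.1e-08), and *LSU3* was lower by 2.12 ± 0.31 (adjusted p = 0.00023). AT1G04770 and *SPX1* were lower in *flc svp* than in *svp* as well, by 1.76 and 1.40. *SOC1* was higher than in *svp* by 1.27 ± 0.13 (adjusted p = 7.1e-08) and *GA20OX2* by 1.10 ± 0.17 (adjusted p = 0.00083).

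The comparison of *flc svp* with *flc* asks what loss of *SVP* adds where *FLC* is lost, and it called 41 genes (0.132%), 19 higher (0.0613%) and 22 lower (0.071%). *SADHU3-2* differed by 5.47 ± 0.17, *QQS* by 4.80 ± 0.19, *PIN1AT* by -3.28 ± 0.10, AT2G13547 by 3.13 ± 0.34 and AT3G27630 by 2.46 ± 0.28. *SOC1* was higher than in *flc* by 1.30 ± 0.13 (adjusted p = 1.2e-08) and *GA20OX2* by 1.39 ± 0.17 (adjusted p = 2.0e-06). *SOC1* and *GA20OX2* were thus higher in the double mutant than in either single mutant. *SOC1* averaged 6.21 ± 0.06 in *flc svp*, 4.94 ± 0.22 in *svp*, 4.91 ± 0.08 in *flc* and 4.44 ± 0.20 in wild type (SD). *GA20OX2* averaged 6.70 ± 0.05 in *flc svp*, 5.60 ± 0.14 in *svp*, 5.32 ± 0.28 in *flc* and 4.44 ± 0.05 in wild type.

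For *LSU1* and *LSU3* the difference from *flc* was -0.62 ± 0.22 (adjusted p = 0.17) and -0.62 ± 0.31 (adjusted p = 0.41), and it was not resolved. For *RCI3*, *PELPK1* and AT3G22600 the difference from *svp* was -0.17 ± 0.20, -0.49 ± 0.33 and -0.31 ± 0.39, not resolved either, while the differences from *flc* were -0.88 ± 0.20 (adjusted p = 0.014), -1.41 ± 0.33 (adjusted p = 0.019) and -1.62 ± 0.39 (adjusted p = 0.020).

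The interaction of the 2 mutations, the change in *flc svp* minus the sum of the changes in *svp* and *flc*, was called in 3 genes (0.00968%) and was positive in each. The interaction was 6.48 ± 0.26 for *QQS* (adjusted p = 2.8e-19), 5.54 ± 0.24 for *SADHU3-2* (adjusted p = 8.1e-19) and 1.73 ± 0.22 for AT1G67105 (adjusted p = 1.9e-05), a non-coding RNA gene. *QQS* was lower than wild type in both single mutants, at 5.83, 6.21 and 6.52 in *svp* and 5.72, 6.14 and 5.61 in *flc*, whereas all 3 *flc svp* arrays were above wild type. *SADHU3-2* lay at 5.86, 6.04 and 6.34 in *svp* and 5.77, 5.72 and 5.72 in *flc*, close to wild type. AT1G67105 gave 6.07, 5.94 and 6.28 in *flc svp*, 4.54, 4.43 and 4.78 in *svp*, 4.31, 4.38 and 4.76 in *flc* and 4.60, 4.77 and 4.75 in wild type. No further *flc svp* line is named in the sources used here. An interaction of the mutations and another inherited difference of that line cannot be told apart.

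**Figure D4:**
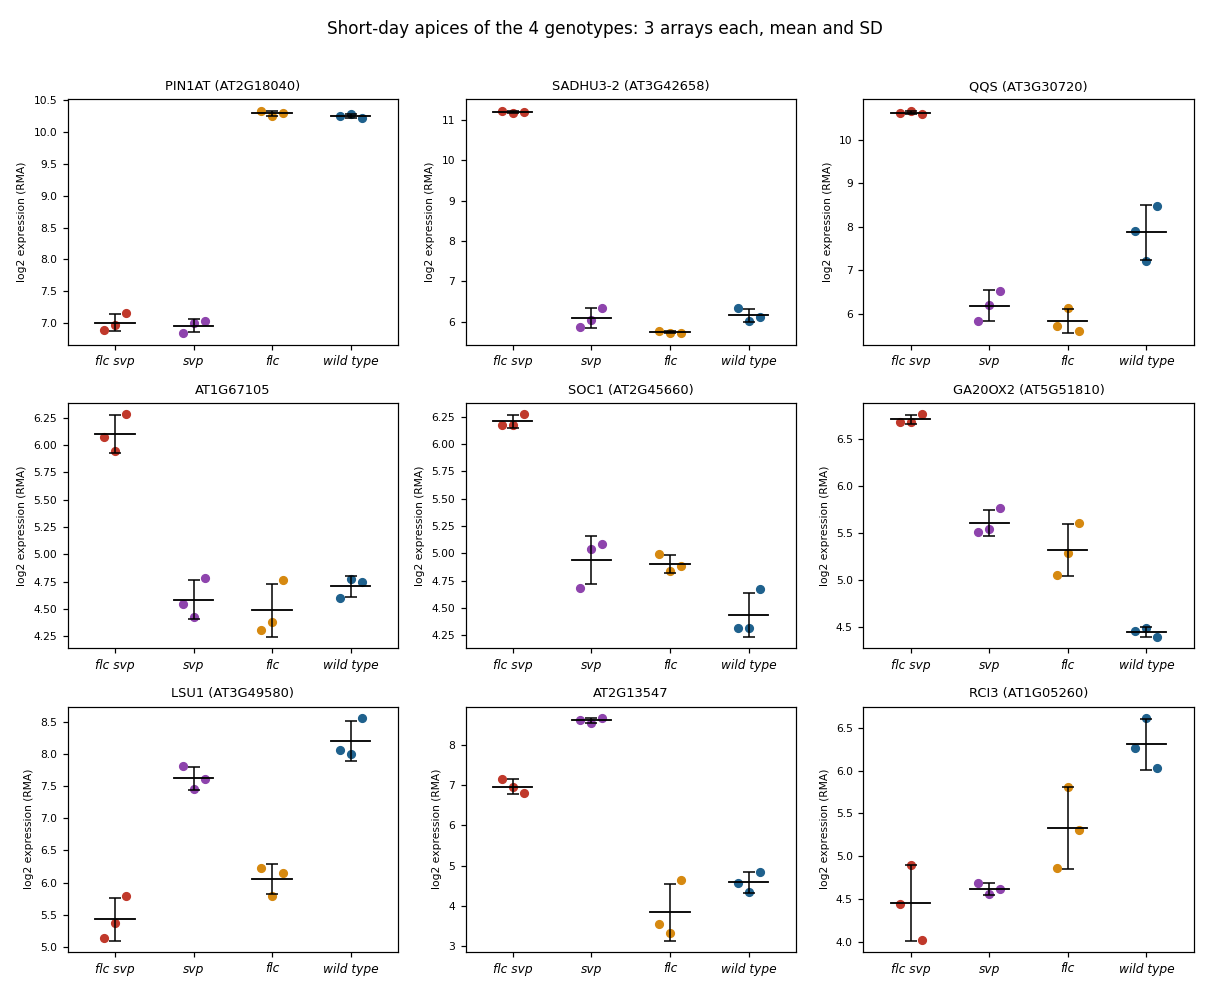
Log2 expression in SD apices of 9 genes in *flc svp*, *svp*, *flc* and wild type, with a point for each of 3 arrays and the mean and SD in black; the vertical scale differs between panels. *SADHU3-2* and AT1G67105 are high in *flc svp* and near wild type in both single mutants, *PIN1AT* is low in *flc svp* and *svp*, and AT2G13547 is higher in *svp* (8.56 to 8.68) than in *flc svp* (6.80 to 7.16).

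The genes called in SDs were followed in *flc svp* apices after transfer to LDs, in arrays that share no sample with the SD comparison. There 122 genes (0.393%) were called, 34 higher (0.11%) and 88 lower (0.284%), and 69 were called with the same sign in both comparisons, 46.9% of the SD calls and 56.6% of the LD calls. Across the 147 genes the changes in SDs and LDs correlated at r = 0.883, a description that rests partly on their having been chosen in SDs. *GA20OX2* changed by 2.26 in SDs and 2.30 in LDs, *SADHU3-2* by 5.05 and 5.0, *PIN1AT* by -3.23 and -3.51, and *SPL15* by 0.95 and 0.95.

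The change differed between day lengths in 4 genes (0.0129%), positively in 1 (0.00323%) and negatively in 3 (0.00968%). *SOC1* rose by 1.77 in SDs. It averaged 7.11 ± 0.05 in *flc svp* and 4.25 ± 0.15 in wild type in LD apices, a rise of 2.86, and the difference between SDs and LDs was -1.09 ± 0.18 (adjusted p = 0.0066). *LSU1* fell by 2.77 in SDs and differed by -0.85 ± 0.22 in LDs (adjusted p = 0.023), and the difference was -1.93 ± 0.31 (adjusted p = 0.0048). In wild-type apices *LSU1* averaged 8.20 ± 0.31 in SDs and 6.96 ± 0.39 in LDs. *RCI3* fell by 1.85 in SDs and differed by -0.09 ± 0.20 in LDs, with a difference of -1.76 ± 0.29 (adjusted p = 0.0048). AT2G18150, another peroxidase gene, differed by 0.04 ± 0.25 in SDs and fell by 2.48 in LDs, a difference of 2.53 ± 0.35 (adjusted p = 0.00058). The labels give SD and LD plants the same age, whereas the methods name no additional days for SD plants, and the part of age in these differences was not tested.

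In a fit of the 24 apex arrays alone, with the same differences, the adjusted p was 0.027 for *SOC1*, 0.067 for *LSU1*, 0.10 for *RCI3* and 0.043 for AT2G18150, and no gene was called. Leaving out 1 of the 12 arrays at a time left between 1 and 5 genes, and AT2G18150 was called each time. The call of *SOC1* was lost without any array except wild-type SD array 1, wild-type SD array 2 and wild-type LD array 3, with differences between -0.98 and -1.12. That of *LSU1* was lost without *flc svp* SD array 1 or 2, wild-type SD array 3, *flc svp* LD array 2 or 3 or wild-type LD array 3, with differences between -1.70 and -1.91. That of *RCI3* was lost without *flc svp* SD array 1 or 3, wild-type SD array 2, any *flc svp* LD array, or wild-type LD array 1 or 3, with differences between -1.57 and -1.80.

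In SD leaves *flc svp* changed more genes, 542 (1.75%), of which 373 were higher (1.2%) and 169 lower (0.545%). Both tissues shared 59 calls of the same sign, 40.1% of those in apices and 10.9% of those in leaves. Over the 147 apex genes the changes correlated at r = 0.748, which again rests partly on their having been chosen in SD apices. The change itself differed between apices and leaves in 192 genes (0.619%), 35 with a higher (0.113%) and 157 with a lower value (0.506%) in apices. The 5 genes with the largest difference were called in leaves and not in apices. *WRKY18*, a defence regulator, differed by 1.08 in apices (adjusted p = 0.041) and rose by 4.68 in leaves. *CEJ1*, a gene of the DREB family, differed by -0.12 in apices and rose by 3.33 in leaves. For AT2G32200, of unknown function, the values were -0.10 in apices and 3.61 in leaves, for AT3G23550, a MATE efflux gene, 0.19 and 3.34, and for AT1G19020, of unknown function, 0.06 and 3.22.

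*SOC1* averaged 7.71 ± 0.07 in *flc svp* and 5.08 ± 0.05 in wild type in SD leaves, a rise of 2.63, and its difference between tissues of -0.86 ± 0.18 (adjusted p = 0.0052) stayed within 2-fold. *GA20OX2* rose more in apices than in leaves. It averaged 4.72 ± 0.05 in *flc svp* leaves and 4.34 ± 0.09 in wild-type leaves, and the difference between the tissues was 1.88 ± 0.24 (adjusted p = 8.7e-06). The cell wall and suberin genes above were not called in leaves, with changes there of -0.21 for *PELPK1*, 0.04 for *PELPK2*, -0.12 for AT3G22600, -0.28 for AT3G22620, 0.11 for AT4G38080, 0.15 for AT4G20390, 0.30 for *RCI3* and -0.08 for *RWP1*, and for each of them the difference between tissues was called. *LSU1* and *LSU3* differed by -0.49 and -0.51 in leaves, where *LSU1* averaged 5.24 ± 0.19 in *flc svp* and 5.73 ± 0.32 in wild type, and again the difference between tissues was called. *PAP1*, *SPX1*, *PAP17*, *CDF3*, *WRKY54*, *DIN10*, *BT2* and *JAZ9* changed in leaves in the same direction as in apices, with leaf changes of -2.18, -2.69, -2.34, -2.03, -2.03, 2.83, 1.92 and 2.58, all called.

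**Figure D5:**
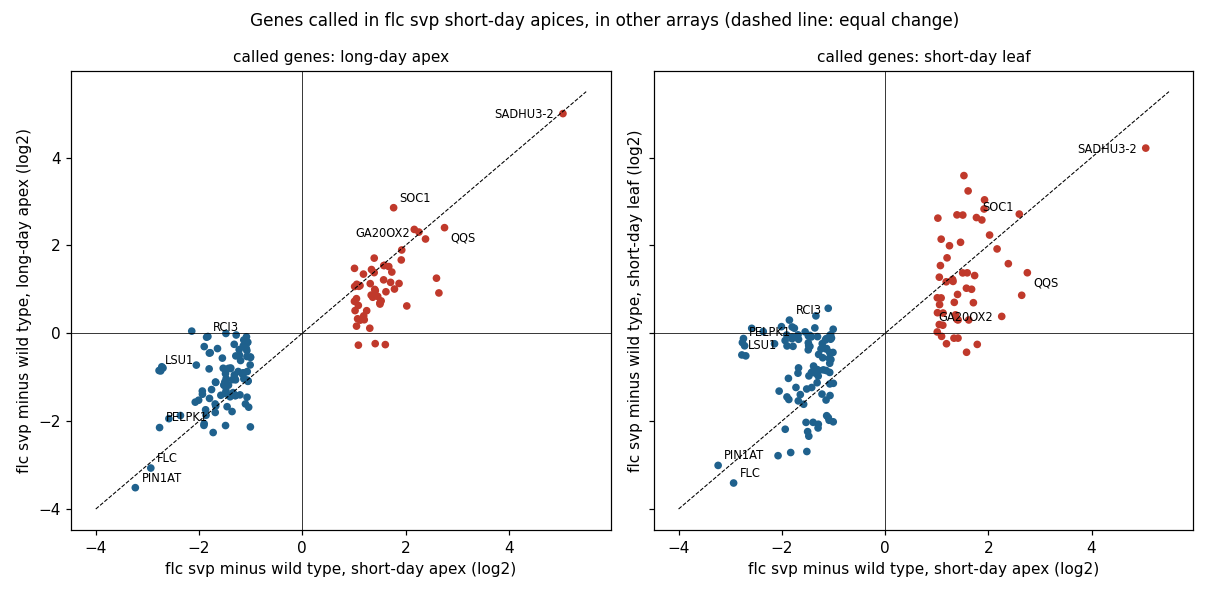
Change in *flc svp* for the 147 genes called in SD apices (horizontal axis, log2) against the change in LD apices (left) and in SD leaves (right), with genes called higher in red and lower in blue and a dashed line at equal change. *SADHU3-2*, *PIN1AT* and *FLC* lie close to the line in both panels, while *LSU1*, *RCI3* and *PELPK1* lie near 0 on the vertical axis in leaves and *GA20OX2* near the line in LD apices alone.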

How the data were processed

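RNA from dissected shoot apices and leaves was hybridised to Affymetrix AGRONOMICS1 tiling arrays, 48 in all. The deposited values are log2 expression levels per gene, which the authors made by RMA (background correction, quantile normalization and summary of the probes of a gene). The genome release behind the probe annotation is not given in the sources used here. Arrays have no read depth, and precision is limited by 3 arrays per group. No column was left unmapped to a sample, and no authors' comparison columns were used.

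All 31004 genes were fitted in limma 3.58.1 (R 4.3.3) with 16 group means and a random block for replicate number (consensus correlation 0.0336), followed by eBayes. P-values were adjusted by Benjamini-Hochberg over all genes. A gene was called at more than 2-fold and an adjusted p under 0.01. ± after a change is the SE, and ± after a level is the SD. The fit was tested on simulated data. Of the loci, 30484 (98.3%) matched a RefSeq symbol table, and symbols are printed as that table gives them or with its name beside them.

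Named genes were *FLC* and *SVP*, the 15 largest rises and 15 largest falls among called genes without overlap, called members of gene lists, the 5 largest called genes of each other comparison, and some defining list members whether called or not. Other list members are given as examples. The lists and the groups compared were chosen with earlier results of these data known, so list counts are descriptions. Same-numbered SD apex arrays of *flc svp* and wild type deviated together only weakly, with r between 0.019 and 0.052. Arrays of different numbers gave r between -0.07 and 0.032. Alternatives covered the block, the arrays fitted, scaling, a minimum mean of 5, the eBayes setting, the thresholds, Storey q-values and leaving out each array. Fits that left out an array or repeated the quantile normalization reused the consensus correlation of the full fit.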

Additional observations from a re-analysis of the deposited data

Results flagged for a closer look

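The following results differed between groups by a test of the difference itself (limma, adjusted over all genes).

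The interaction of the *FLC* and *SVP* mutations in SD apices passed in 3 genes, with values of 6.48 for *QQS*, 5.544 for *SADHU3-2* and 1.733 for AT1G67105 (adjusted p = 2.8e-19, 8.1e-19 and 1.9e-05).

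The *flc svp* effect differed between SD apices and SD leaves in 192 genes. Of the named genes with a lower value in apices, the difference was -3.713 for AT2G32200, -3.601 for *WRKY18*, -3.451 for *CEJ1*, -3.157 for AT1G19020 and -3.151 for AT3G23550. Cell wall, lipid transfer and suberin genes differed by -2.697 for AT4G38080, -2.623 for AT3G22600, -2.553 for *PELPK1*, -2.436 for AT3G22620, -2.4 for *PELPK2*, -2.158 for AT4G20390 and -1.233 for *RWP1*. The peroxidase genes *RCI3* and *PRXCB* differed by -2.153 and -1.736, the sulfur genes *LSU1* and *LSU3* by -2.28 and -2.183, and AT1G67105 by -1.302. A higher value in apices was found for AT2G11891 (2.039), *GA20OX2* (1.877), AT3G27630 (1.782) and *QQS* (1.378). The adjusted p of these named genes lay between 3.0e-06 for *WRKY18* and 0.0078 for *RWP1*.

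The *flc svp* effect differed between SD and LD apices in 4 genes, by 2.527 for AT2G18150, -1.926 for *LSU1*, -1.764 for *RCI3* and -1.088 for *SOC1* (*AGL20*), with adjusted p of 0.00058, 0.0048, 0.0048 and 0.0066. What sets any of these differences was not tested.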

How the results depend on the processing

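The count of 147 genes was 139 in a fit of the 24 apex arrays, 128 with the 12 SD apex arrays and 72 (22 higher, 50 lower) with only the 6 arrays compared, where the spread rests on fewer arrays. Centring gave 144, repeated quantile normalization 146, a mean of at least 5 gave 113 of 12901 genes, eBayes with trend and robust settings 149, an adjusted p under 0.05 gave 178 and Storey q-values 149. Without the fold threshold the counts were 529 for *flc svp* against wild type, 17 against *svp*, 212 against *flc* and 312 for apices against leaves. The difference between SDs and LDs was called in 0 genes with the 24 apex arrays alone. At an unadjusted p under 0.05 the full fit gave 1600 genes there.

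Without the replicate block 140 genes were called, and with it as a fixed term 154. The counts without it and with it as a fixed term were 11 and 12 against *svp*, 36 and 44 against *flc*, 3 and 3 for the interaction, 171 and 204 for apices against leaves, and 4 and 3 for SDs against LDs. Of the named genes only *APR3* lost its call without the block (adjusted p = 0.012).

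Leaving out each array in turn gave 119 to 145 genes against wild type, 9 to 11 against *svp*, 33 to 40 against *flc*, 3 to 3 for the interaction, 135 to 232 for apices against leaves and 1 to 5 for SDs against LDs. Between 18 and 38 of the 147 calls were lost each time, and none changed sign. Of 47 called named genes, 20 kept their call under every setting tried. Sign changed only for uncalled genes, whose ranges over the 6 fits were -0.257 to 0.379 for AT1G19020 (also -0.239), -0.222 to 0.123 for *AP1* (also 0.041 and 0.01), -0.121 to 0.188 for AT2G18150 (also -0.035), -0.038 to 0.145 for *CLV3*, -0.35 to 0.208 for AT2G32200, -0.004 to 0.503 for *TEM1* and -0.272 to 0.011 for *CEJ1*. Causes were not tested.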

Other observations

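Other called genes, chosen after their values were seen, covered light, nitrogen and stress functions. *BBX18* (AT2G21320), a B-box gene of light signalling that lies near *SVP*, gave 5.62, 5.62 and 6.03 in *flc svp*, against 6.82, 6.82 and 6.88 in wild type, and fell by 1.08 ± 0.19 (adjusted p = 0.00023 in limma). *AXR3* (AT1G04250), an Aux/IAA repressor of auxin responses, fell by 1.07 ± 0.15 (adjusted p = 8.4e-06), with arrays at 7.20, 7.21 and 7.09 in *flc svp*, against 8.32, 8.32 and 8.07 in wild type. *EXT3* (AT1G21310), which encodes a structural extensin of the cell wall, fell by 1.76 ± 0.26 (adjusted p = 2.3e-05). *HOL3* (AT2G43940), which encodes a methyltransferase-like protein, fell by 1.86 ± 0.14 (adjusted p = 1.4e-11) and showed no overlap, at 5.48 to 5.83 in *flc svp* and 7.47 to 7.64 in wild type.

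Among the rises, *NAC103* (AT5G64060), a NAC transcription factor of the unfolded protein response, gave 5.68, 5.88 and 6.04 in *flc svp*, against 4.31, 4.40 and 4.65 in wild type, a rise of 1.42 ± 0.15 (adjusted p = 3.3e-08). *NIA1* (AT1G77760), which encodes a nitrate reductase, rose by 1.05 ± 0.19 (adjusted p = 0.00055) and fell short of 2-fold without *flc svp* array 3 (0.98). *ILL6* (AT1G44350), which encodes an amidohydrolase that cleaves jasmonate conjugates, rose by 1.51 ± 0.25 (adjusted p = 0.00015), with arrays at 6.25, 6.28 and 6.64 in *flc svp*, against 4.53, 4.75 and 5.37 in wild type.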
